A study of Mus musculus with 22 samples.

Results

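Injury-only methylation gains were CpG positions at which Müller glia collected after NMDA injury were more methylated than young and 1.5-year-old Müller glia, while retinal progenitor cells (RPCs) were not raised over young glia. They numbered 3739 of the 743808 autosomal positions listed in all 12 bisulfite libraries, or 0.503%. The members were chosen by these same methylation levels. A member had an NMDA mean at least 15 points above both the young and the 1.5-year mean, a lowest NMDA library above the highest of those 6 libraries, and an RPC mean less than 10 points above young. The levels below therefore describe the choice and carry no test.

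Müller glia were sorted by GFP fluorescence from C57BL/6 mice in which an Rlbp1 reporter marks these cells. Young mice were 2 to 3 months old, the injured mice had the same age and had received NMDA in the eye 2 days before collection, aged mice were 1.5 years old, and RPCs came from C57BL/6 embryos at day 12.5. All 3 adult groups carried the reporter. Methylation was measured by reduced representation bisulfite sequencing (RRBS) in 3 libraries of each of the 4 groups, and RNA in 2 young, 3 NMDA, 2 aged and 3 RPC libraries.

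Methylation of the cytosine in CpG is written by the DNMT enzymes and removed through oxidation by the TET enzymes. CpG-dense promoters are usually unmethylated in adult tissues, and the flanks of such islands differ more between cell types. Müller glia share many transcription factors with progenitors, and injury by NMDA, which kills inner retinal neurons, makes them reactive.

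Few members lay in promoters, but 4 stretches just before annotated start sites held the most members there and are shown to make the density of gained CpGs visible. Each is the 250 bases before the start site, 5′ to 3′ on the gene's strand, from RefSeq on GRCm38.p6, with the CpGs of members in capitals.
A730035I17Rik: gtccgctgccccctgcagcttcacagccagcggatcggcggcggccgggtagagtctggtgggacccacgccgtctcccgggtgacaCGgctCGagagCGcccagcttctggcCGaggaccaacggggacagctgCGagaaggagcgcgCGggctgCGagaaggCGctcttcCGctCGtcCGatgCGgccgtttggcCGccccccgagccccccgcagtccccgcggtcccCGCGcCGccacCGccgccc
Ggt1: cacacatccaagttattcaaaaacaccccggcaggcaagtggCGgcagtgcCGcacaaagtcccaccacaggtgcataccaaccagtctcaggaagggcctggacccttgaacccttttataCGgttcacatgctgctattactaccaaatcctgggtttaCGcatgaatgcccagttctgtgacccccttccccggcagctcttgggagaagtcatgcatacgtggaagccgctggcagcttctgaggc
Cnksr1: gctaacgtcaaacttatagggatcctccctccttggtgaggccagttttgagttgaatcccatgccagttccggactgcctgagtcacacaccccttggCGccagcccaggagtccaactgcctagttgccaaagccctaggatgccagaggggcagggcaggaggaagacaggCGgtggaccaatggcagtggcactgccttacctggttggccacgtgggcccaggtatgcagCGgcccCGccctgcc
Gm33636: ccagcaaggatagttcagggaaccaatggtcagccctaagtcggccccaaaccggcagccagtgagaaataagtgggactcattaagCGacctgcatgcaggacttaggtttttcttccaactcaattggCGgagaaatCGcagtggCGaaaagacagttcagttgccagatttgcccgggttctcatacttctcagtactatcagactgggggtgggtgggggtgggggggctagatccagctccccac

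The stretch before A730035I17Rik, a long noncoding RNA gene, is chr5:98185985-98186234 and lies inside the span of Prdm8, which encodes a transcriptional regulator of the nervous system. Of its 52 measured positions 17 were members. Their mean level was 40.66%, 18.91% and 23.46% in the 3 NMDA libraries, 2.27%, 3.12% and 3.97% in the young ones, 1.70%, 10.71% and 3.13% in the aged ones and 0.38%, 0.54% and 0.37% in RPCs. NMDA replicate 1 was the highest, aged replicate 2 stood above the other aged libraries, and RPCs were nearly unmethylated.

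Ggt1 encodes a gamma-glutamyltransferase that breaks down extracellular glutathione. Its stretch, chr10:75573245-75573494, held 6 members among 10 measured positions, with levels of 40.49%, 32.28% and 35.15% after NMDA, 9.66%, 14.74% and 10.39% in young cells, 17.46%, 14.80% and 9.76% in aged cells, while RPCs had 3.12%, 5.14% and 1.72%. The 3 NMDA libraries lay closer together here than at A730035I17Rik.

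Cnksr1 encodes a scaffold protein of Ras signalling. Its stretch, chr4:134238400-134238649, held 6 members among 12 measured positions, at 24.78%, 16.08% and 31.65% after NMDA against 2.77% to 5.30% in young cells, 2.62% to 5.69% in aged cells, and RPCs at 1.46% to 5.14%. It held 1 match each to the AP-1 motif TGANTCA, the E-box CACGTG and the SP1 motif GGGCGG, of which the A730035I17Rik stretch held 2. The stretch before the predicted gene Gm33636, chr15:97830436-97830685, held 6 members among 9 positions, at 25.16%, 23.73% and 36.32% after NMDA and at most 5.40% in every other library, with 1 match to the STAT motif TTCNNNGAA.

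Windows of 250 bases before to 50 after a start site were searched on both strands for these and further motifs, whose matches may overlap one another. Of the 65 distinct windows that held a member, 9.23% had TGANTCA, against 4.06% of the 7324 windows with a measured position and 7.83% of all 31223 autosomal windows. TTCNNNGAA was in 6.15%, 6.55% and 8.35%, CACGTG in 9.23%, 10.3% and 7.16%, the SP1 motif GGGCGG in 47.7%, 67.5% and 36.1%, the homeobox motif TAATTA in 1.54%, 1.84% and 5.28%, and the CRX motif TAATCC in 3.08%, 4.74% and 7.06%. The palindromic NRF1 motif was in 0 of the 65, in 1.91% and in 0.967%. The counts among the 65 were 6 for TGANTCA, 4 for TTCNNNGAA, 6 for CACGTG, 31 for GGGCGG, 1 for TAATTA and 2 for TAATCC. The cut site CCGG of the RRBS enzyme MspI was in 100%, 99.7% and 53.6%. Windows with a member had a median of 10 CpGs, against 23 in windows with a measured position, and 60% against 63% G and C. They were thus poorer in CpG than the promoters that RRBS usually covers, and a motif match is only a match of letters.

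Across all members the 3 NMDA libraries had mean levels of 38.51%, 33.69% and 43.47%. Young libraries stood at 12.56%, 14.78% and 13.71%, aged libraries at 14.89%, 16.35% and 12.66%, and RPC libraries at 10.38%, 10.98% and 10.13%. Averaged over members, the young, aged and RPC libraries lay between 10.13% and 16.35%. The gain over young had a median of 23.24 points (quartiles 19.15 and 29.02), and 155 members gained 40 points or more.

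**Figure D1:**
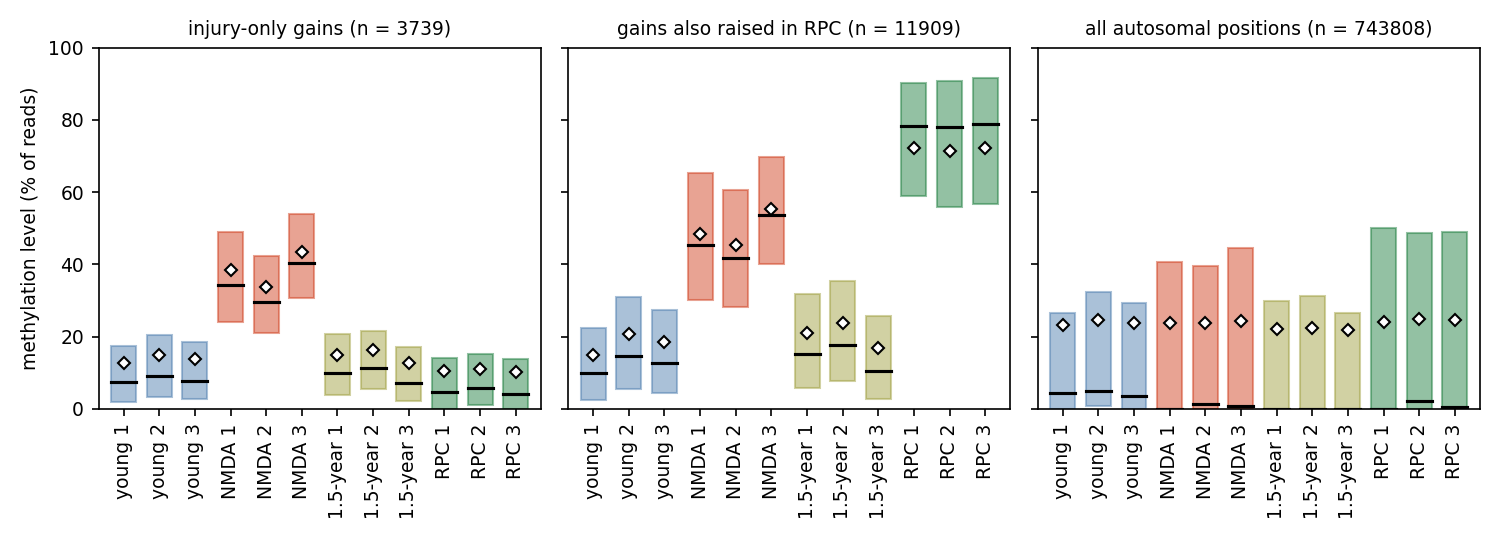
Methylation level (% of reads, linear axis) in each of the 12 RRBS libraries for injury-only gains, for NMDA gains also raised in RPCs and for all autosomal positions. Boxes span the quartiles, lines are medians and diamonds means. The NMDA boxes stand apart in the first panel because the members were chosen for it, and RPC means are near 72% in the second and near 10% in the first.

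Most members had low levels in young cells, as most positions did, and stayed below full methylation after NMDA. Of the 3739 members, 2116 (56.6%) had a young mean under 10%, against 64.1% of all positions, and 2980 (79.7%) had an NMDA mean under 50%. The members included 145 (3.88%) with a young mean of 50% or more, against 21.8% of all positions. The rate of members was 0.150% of positions with a young level of 0 to 1%, 1.15% at 5 to 10%, 1.68% at 20 to 40% and 0.172% at 60 to 85%. The middle levels thus held more members per position than the extremes, where the rule leaves less room at the top.

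In RPCs 1780 members (47.6%) had a mean under 5%, and 2384 (63.8%) were below the young mean. At 549 members RPCs were 10 or more points below young cells, and at 520 they were 5 to 10 points above, close to the limit of the rule. The 1.5-year mean exceeded the young mean at 58.3% of members, compared with 23.5% of the autosomal positions at which they differed. Over all autosomal positions the median of the young means was 4.15%, against 1.39% after NMDA, 0.65% in aged cells and 1.67% in RPCs, so low levels were higher in the young libraries, whose part in the members was not tested.

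The members were the smaller share of the NMDA gains. Without the condition on RPCs 15648 positions met the rule, of which 11909 were also raised in RPCs, so members made up 23.9%. At those shared gains the NMDA libraries stood at 48.44%, 45.26% and 55.25%, and the RPC libraries at 71.46% to 72.32%. NMDA replicate 3 was the highest of the NMDA libraries at 57.0% of members and at 58.6% of shared gains, and replicate 2 was the lowest at 51.2% of members. The same rule turned to losses found 472 positions (0.0635%), at which the NMDA mean was 57.8% against 83.46% in young cells.

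Coverage, which the rule did not use beyond the deposited minimum of 10 reads, was near that of all positions in NMDA libraries and above it in aged ones. The median coverage of members divided by that of all autosomal positions was 0.944, 0.929 and 0.943 in NMDA libraries and 1.112, 0.971 and 1.045 in young ones. It was 1.17, 1.081 and 1.239 in aged libraries and 0.926, 1.066 and 1.129 in RPC libraries. The NMDA values lay below the young ones without overlap (0.939 ± 0.009 against 1.043 ± 0.071, SD, n = 3 each). The exact permutation p was 0.1, two-sided, the smallest that 3 against 3 can give. Levels on fewer reads scatter more, so coverage is not independent of the choice of members, and nothing is concluded from this p. Of the members 2593 (69.4%) had at least 20 reads in every library, against 65.7% of all positions.

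The opposite strand gave a further reading of the same CpG. Its position was listed in all 12 libraries for 1833 members, and at 1732 of these (94.5%) the NMDA mean was above the young mean. The gain was 15 points or more at 955 (52.1%), with a median of 15.64 points, but 442 (24.1%) were themselves members, which fixes part of these values. Among the 1455 positions 1 bp from a member that were not members, the NMDA mean was above young at 92.6%, with a median difference of 12.52 points, against 27.6% of positions beyond 5000 bp. The other strand is read from other molecules of the same libraries, so it is no separate sample. Its gain was smaller than the members' own median of 23.24 points, which the choice of members raises.

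Positions near a member that were not members themselves were higher after NMDA as well, up to about 250 bp away. In successive bins, the mean NMDA minus young difference was 12.5 points at 1 bp, 10.11 up to 25 bp, 7.77 up to 50 bp, 6.38 up to 100 bp and 5.51 up to 250 bp. It was 2.08 up to 500 bp, -0.22 up to 1000 bp and -0.19 beyond 5000 bp. RPC means at these neighbours stood below the young means at each of these distances up to 1000 bp.

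**Figure D2:**
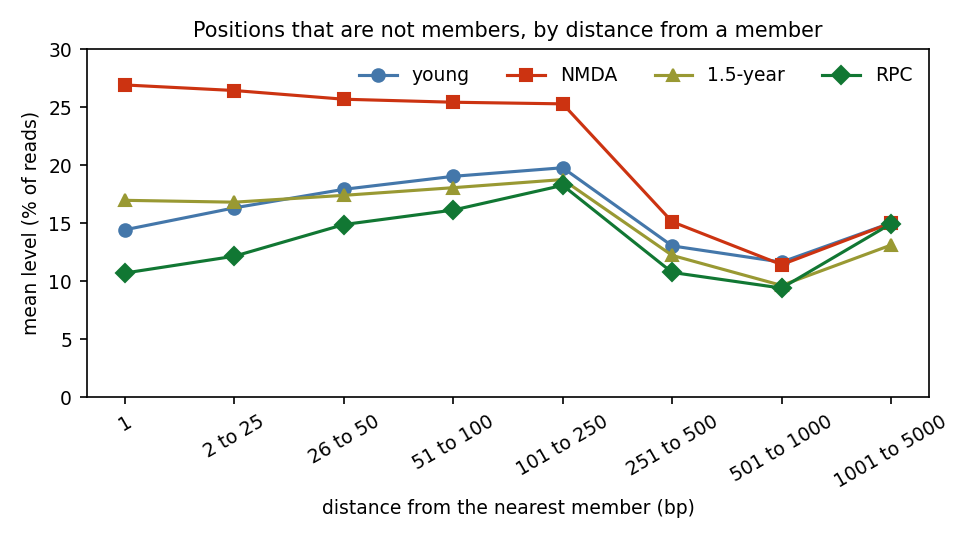
Mean methylation level (% of reads) of positions that are not members, by distance from the nearest member in bp, for each group mean of 3 libraries. The NMDA line lies above the others up to 500 bp, by less with distance, and meets the young line between 500 and 1000 bp.

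Members were sparse close to start sites. Of 3629 members on chromosomes with start sites in the table used, 609 (16.8%) lay within 1000 bp of one, against 47.0% of all positions and 7.69% of the shared gains. The promoter window of 250 bp before to 50 bp after a start held 113 members (3.11%), against 13.1% of all positions. From over 1000 to 2000 bp after a start lay 6.78% of members, 3.43% of all positions and 2.35% of shared gains. Start sites were on hand for 75.3% of protein-coding member genes and 79.4% of protein-coding genes with a measured position, so some distances are to a neighbouring gene's start, and chromosome 18 was left out.

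Per measured position the rate of members was 0.0787% in the first 250 bp after a start and 0.992% at 1000 to 2000 bp after it. For shared gains these rates were 0.139% and 1.10%, and from 2000 to 5000 bp after a start they were 2.57% for shared gains and 0.920% for members. Of the members 2922 (78.1%) lay inside a gene's span, against 75.8% of all positions, and 443 (11.8%) lay over 5000 bp from any gene, against 10.9% of all positions and 21.4% of shared gains. Exons and introns were not annotated in the tables used.

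**Figure D3:**
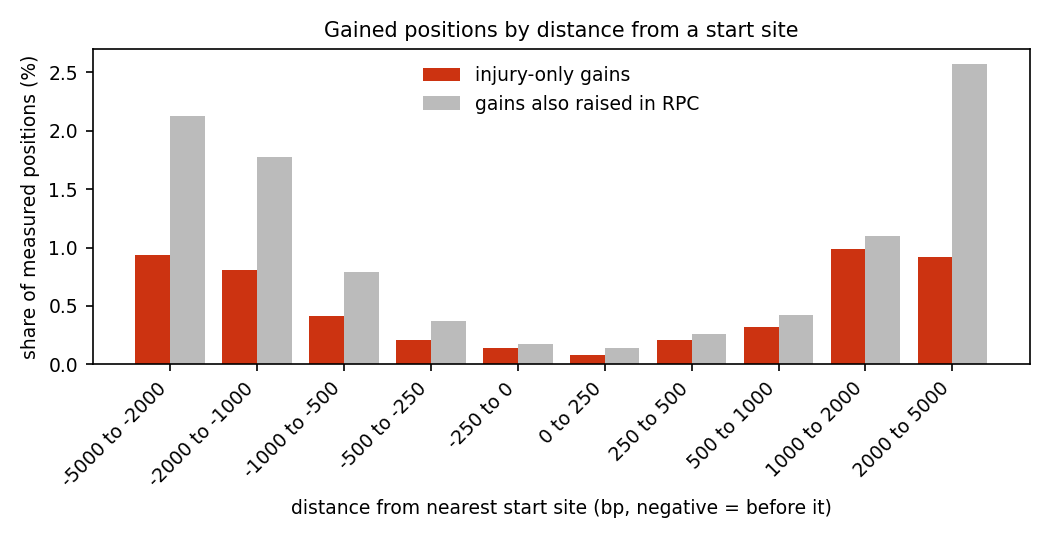
Share of measured autosomal positions (%, bars from 0) that are injury-only gains or gains also raised in RPCs, by distance in bp from the nearest start site. Both shares are lowest in the first 250 bp after the start, and at 1000 to 2000 bp after it they are nearly level, at 0.992% and 1.10%.

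By chromosome the share ranged from 0.272% of positions on chromosome 6 to 0.748% on chromosome 11. Joined where they lay within 100 bp, members formed 2138 regions, of which 1505 had 1 member, 131 had at least 5 and 16 had at least 10. Regions of 2 or more held 59.7% of the members.

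The largest region lay in the span of Sema6c, a transmembrane semaphorin of axon guidance, at chr3:95173184-95173513, 9009 bp after its start site. It held 28 members among 52 measured positions. The NMDA libraries stood at 46.30%, 40.96% and 54.37%, young at 18.04%, 18.20% and 20%, aged at 25.61%, 24.61% and 20.81%, and RPCs at 10.21%, 8.72% and 16.21%. Over all 52 positions the means were 38.19% after NMDA and 16.55% in young cells.

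There were 2 regions at genes of the Notch pathway, in which Delta-like ligands activate receptors on neighbouring cells and Hes repressors are targets. At Hes3, chr4:152290510-152290635 had 13 members of 33 positions, with 19.74%, 18.27% and 34.95% after NMDA, 2.36% to 4.22% in young cells, 5% to 5.55% in aged cells and 0.25% to 1.94% in RPCs. NMDA replicate 3 was the highest there. At chr2:119322921-119323079, inside the noncoding gene Gm14207 and at -2784 bp from the start of Dll4, a Notch ligand gene, 13 of 19 positions were members, at 27.01%, 32.33% and 44.38% after NMDA and 1.49% to 6.03% elsewhere.

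At chr17:85617002-85617360, in the spans of Six3os1 and Six3, an eye-field homeobox gene, all 12 measured positions were members, at 42.44%, 20.26% and 45.20% after NMDA, 4.27% to 6.26% in young cells, 0.90% to 9.07% in aged cells and 0.40% to 1.85% in RPCs. NMDA replicate 2 was well below the other NMDA libraries. At chr14:21990608-21990817, at -1111 bp from the start of Zfp503, a zinc finger gene of eye development, 12 of 20 positions were members, with 33.63%, 35.27% and 49.56% after NMDA, 15.32% to 17.76% in young cells, 16.35% to 22.55% in aged cells and 0.35% to 1.09% in RPCs. RPCs were thus well below young cells there. The Prdm8 region at chr5:98185961-98186146, which overlaps the stretch printed above, had 19 members of 56 positions.

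Nfatc4 encodes a transcription factor controlled by calcium and calcineurin. At chr14:55826759-55826866, 2017 bp after its start, 16 of 20 positions were members, with 27.76%, 33.49% and 42.15% after NMDA, 4.99% to 6.65% in young cells and 2.34% to 3.66% in RPCs. At chr8:120416585-120416856, in Gse1, a chromatin-associated protein gene, 12 of 30 positions were members, and the NMDA libraries were spread widely at 44.47%, 15.27% and 38.16%, against 3.50% to 4.44% in young cells. Replicate 2 was again the lowest.

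Among the remaining regions Eva1b, a gene for a transmembrane protein, had 16 members of 27 positions at chr4:126149432-126149619, at 30.59%, 34.90% and 44.16% after NMDA, but the median over its members of the lowest coverage in any library was only 18 reads. Gltpd2, near the proteasome subunit gene Psmb6, had 16 of 40 at chr11:70520195-70520392 (NMDA mean 32.69% ± 8.75, young 11.24% ± 1.90, SD, n = 3). The tight junction gene Cldn7 had 13 of 16 at chr11:69965899-69966089 (32.77% ± 8.83 and 9.90% ± 1.69), and the noncoding gene Gm35551 13 of 32 at chr17:84067184-84067381 (20.85% ± 9.13 and 3.45% ± 0.95).

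**Figure D4:**
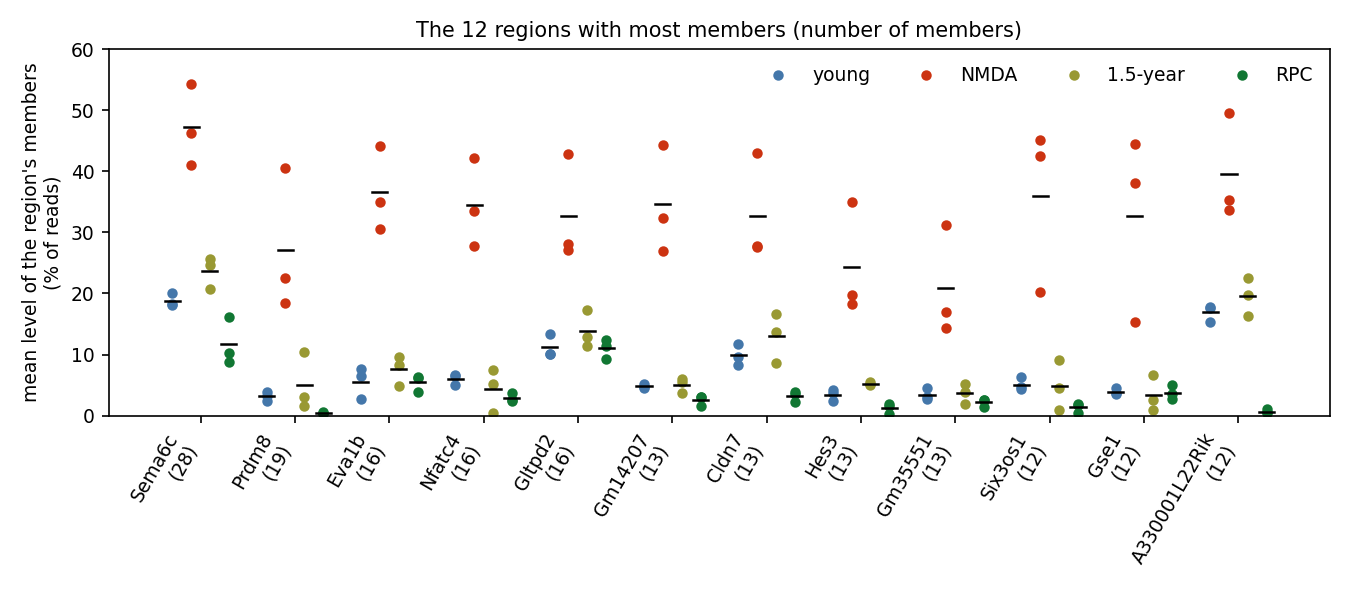
Mean level (% of reads) over the members of each of the 12 regions with most members, 1 point per library and a line at the mean of the 3 libraries of a group. The NMDA points lie above the young and 1.5-year points in each region, by the rule, and they are spread most at Six3os1 and Gse1, where replicate 2 is low.

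Outside these regions the largest gain was at base 147042704 of chr5, in the ubiquitin ligase gene Lnx2. It stood at 80%, 57.52% and 76.92% after NMDA and at 7.27%, 24.62% and 0.0% in young cells. Its 1.5-year libraries, at 47.87%, 50.91% and 5.45%, were far apart from one another. The NMDA levels rested on 45, 113 and 52 reads, and the 95% Wilson intervals, which cover counting error only, ran from 66.2% to 89.1%, 48.3% to 66.2% and 63.9% to 86.3%.

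At base 10184272 of chr19, in the fatty acid desaturase gene Fads1, the levels were 65.45%, 45.81% and 64.84% after NMDA, 2.41%, 11.34% and 1.64% in young cells, 4%, 8.97% and 3.98% in aged cells, with RPCs at 1.56%, 0.77% and 0.0%, each on at least 55 reads. Only the NMDA libraries stood apart there, and the other 9 lay at or below 11.34%. The other 6 of the 8 largest single gains, in Gm41585, Galnt10, Agap3 and Plekho1, near Gm9132 and far from any gene on chr12, had gains of 54.38 to 58.03 points and lowest coverages of 10 to 18 reads.

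At the limit of the rule the values were close together. The 5 members just inside had a smaller gain of 15 to 15.003 points, at H2bc21, Sema6c, Pdgfrb and near Nxph4 and Lfng. The 5 positions just outside had 14.993 to 14.997 points, at Zfp423, Bsn, Slc25a1, Src and Pipox. Smaller gains under 16 points belonged to 428 members (11.4%).

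Genes were counted as holding a member if it lay in their span or within 5000 bp of it. That was so for 2017 of the 25262 genes with a measured position, 1410 of them protein-coding, and 861 of the 2017 also held a gain raised in RPCs. Genes with more measured positions held members more often, from 2.29% of genes with 1 to 9 positions to 20.1% with 100 to under 200 and 42.9% with 200 or more.

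Of 18 retinal progenitor genes 11 held members, among them Fzd5, Lhx2, Pax6, Sox2, Sfrp2, Hes5, Hmga2, Six6, Dll1 and Six3. Together the 18 genes had 62 members among 2454 positions, or 2.53% against 0.503% of all positions, and a median of 137.5 positions each. Gains also raised in RPCs were held by 10 of the 18, so NMDA gains at these genes were not confined to the injury-only part. The list was chosen with results of these data known, and the difference in share was not tested. Müller glia genes held 6 members among 820 positions (0.732%), in 4 of 18 measured genes, and gliosis and injury genes 1 among 937 (0.107%). Photoreceptor, microglia and macrophage, pigment cell, lens and blood genes held 0 members, over 330, 217, 200, 207 and 58 positions.

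Lhx2, a homeobox gene needed for eye formation, had 12 members among 271 positions between bases 38352425 and 38356422 of chr2. They stood at 22.95%, 26.20% and 36.74% after NMDA, 3.68% to 6.43% in young cells, 4.74% to 10.57% in aged cells and 0.06% to 2.63% in RPCs. NMDA replicate 3 was the highest there.

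Fzd5, a Wnt receptor gene, had 8 members between bases 64735282 and 64735906 of chr1, at 15.78%, 13.52% and 29.93% after NMDA and 1.13% to 3.93% in young cells. RPCs, at 4.05% to 9.28%, were above young cells there. Hes5, a Notch target gene, had 6 members outside its span, between bases 154957281 and 154958511 of chr4, at 21.27%, 26.09% and 44.01% after NMDA, 2.39% to 6.92% in young cells and 4.22% to 6.71% in RPCs.

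Members at other progenitor genes were few. Pax6, the master regulator of eye development, had 2 (NMDA mean 22.92% ± 4.45, young 4.24% ± 1.42, RPC listed at 0.0% in all 3 libraries). Six6 had 2 (24.66% ± 10.55 and 1.52% ± 2.62). Sox2, which both progenitors and Müller glia express, had 2 outside its span (42.05% ± 5.24 and 19.26% ± 5.31). Dll1, the Notch ligand gene, had 1 (23.05% ± 7.10 and 1.77% ± 1.53), at base 15377132 of chr17, just outside its span.

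Of Müller glia genes Kcnj10, a potassium channel gene, had 2 members, at 38.89%, 25.31% and 34.48% after NMDA, 0.0%, 5.13% and 4.65% in young cells and 0.0% in all RPC libraries. Slc1a3, a glutamate transporter gene, had 1 member that was already at 56.1% ± 3.9 in young cells and stood at 76.31% ± 8.08 after NMDA. Apoe, a lipid carrier gene, had 1 (21.13% ± 8.35 after NMDA, 3.40% ± 2.96 in young cells). In the gliosis list the injury response gene Atf3 had 1, at 42.42%, 14.95% and 14.29% after NMDA, where replicate 1 stood alone. Close to the start sites of the 18 progenitor genes, within 1000 bp, 841 positions averaged 1.43% to 1.89% after NMDA and 2.93% to 3.86% in young cells, so levels there were low in both.

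Among neuron genes Tubb3, which encodes a neuronal tubulin, had 7 members between bases 123414438 and 123414482 of chr8, at 40.97%, 30.10% and 38.05% after NMDA, 9.03% to 16.64% in young cells and 3.93% to 9.35% in RPCs. Among genes of methylation itself Tet1, a 5-methylcytosine oxidase gene, had 1 member, at 41.18%, 37.88% and 50% after NMDA and 6.67% to 28.72% in young cells, and Mbd2 had 2.

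RNA is a separate measurement that the rule did not use. The libraries held 10149390 to 36486072 counts, and differences below are log2 values ± SE with adjusted p from edgeR's quasi-likelihood test over 18931 genes, each group against the same young libraries. Levels are CPM, counts scaled to the library's size. The young libraries detected 13913 and 14919 genes, whereas those of the other groups detected 20920 to 23618. Depth did not order them so, as RPC replicate 2 had 11067405 counts and young replicate 1 had 15202738. Zeros listed in young cells, and fold bounds built on them, therefore need not mean absence of the RNA, and the reason was not tested. Of the 2017 genes 1570 were found in the count table and 1340 were tested.

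The count table had a feature that touches these genes. Among 10145 genes that reached 8 CPM on average in NMDA and in aged cells, 151 were listed at less than 1/20 of that in both young cells and RPCs, whereas 2 genes showed the reverse and 0 to 14 the other pairings of groups. The 151 include genes such as Map4 and Dctn1, which most cells use, and of the 144 annotated ones 131 (91.0%) overlapped another gene, against 48.1% of the others. Among them were 31 member genes, Lhx2, Fgfr1 and Msi1 included. Such genes are given here as listed values, and the reason was not tested.

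After NMDA 430 tested member genes (32.1%) were called higher and 267 (19.9%) lower, against 30.6% and 14.3% of all genes tested. Genes with any measured position stood at 30.5% and 15.1%. The median log2 change was 0.21 for member genes and 0.26 for all genes (0.16 and 0.20 with genes at 0 in 1 group put at their bound of 3 counts). The share called higher was therefore near the background and the share called lower was above it. Without the 31 member genes listed near 0 the shares were 30.5% and 20.4%, and among the 560 that overlap no other gene they were 24.5% and 23.9%, against 25% and 16.8% of such genes with a measured position.

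In aged cells 318 member genes (23.7%) were called higher and 66 (4.93%) lower, against 21.1% and 5.85% of all genes tested. Against RPCs, 418 (31.2%) were called higher in RPCs and 493 (36.8%) lower, with backgrounds of 35.9% and 24.9%. Their median log2 value there was -0.11, against 0.30 for all genes (-0.21 and 0.20 with bounds). Genes with a shared gain and no member had 28.4% higher and 37.8% lower in RPCs and 31.0% higher and 19.0% lower after NMDA, close to the member genes.

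The 34 tested genes with a member in the promoter window itself had 12 called higher (35.3%) and 5 lower (14.7%) after NMDA, about the 30.6% and 14.3% of all genes tested. The 195 with a member within 1000 bp of a start had 31.3% higher and 21.0% lower.

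Among the 11 progenitor genes with members, 3 were called higher after NMDA, 6 lower and 2 neither, where 30.6% and 14.3% of all genes tested were called higher and lower. The 3 include Lhx2 and the 6 include Sfrp2, whose values below do not bear a reading. Of the 7 without members 1 was higher, 2 lower and 4 neither. This list has few genes and was chosen with results of these data known. No difference between these counts was tested.

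Hes5 was listed at 21.6, 10.9 and 26 CPM after NMDA against 237 and 173 in young cells, without overlap, and fell by log2 3.29 ± 0.34 (adjusted p = 0.00015). Its level was 135 and 150 CPM in aged cells. Fzd5 stood at 244, 145 and 245 CPM against 1162 and 1467 in young cells and fell by log2 2.53 ± 0.22 (adjusted p = 6.4e-05), with 1257 and 1410 in aged cells. At both genes the NMDA libraries lay far below the young and the aged ones.

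Sox2 fell by log2 0.86 ± 0.20 (137, 79.4 and 109 CPM against 194 and 230, adjusted p = 0.0083). Pax6 fell by log2 0.66 ± 0.16 (373 ± 76.9 CPM against 633 ± 16.6, SD, n = 3 and 2, adjusted p = 0.010). The NMDA and young values overlapped at neither gene, and NMDA replicate 2 was the lowest at both. Sox2 and Pax6 overlap other genes.

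Six3 stood at 117, 76.9 and 117 CPM after NMDA and 130 and 154 in young cells, and it did not pass (log2 -0.34 ± 0.17, adjusted p = 0.14). Six3os1, the noncoding gene that overlaps it, fell by log2 1.04 ± 0.21 (383, 246 and 378 against 589 and 908, adjusted p = 0.0048). Reads of overlapping genes cannot be assigned to one of them with the strand setting unknown.

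Six6 rose after NMDA by log2 0.48 ± 0.15 (118, 84.4 and 110 CPM against 77.1 and 83.9, adjusted p = 0.026), with its lowest NMDA library just above the young ones. Hmga2, a chromatin protein gene of embryonic cells, was listed at 70.8, 10.5 and 16.3 CPM after NMDA, 0 and 0.0985 in young cells and 126 to 162 in RPCs. Lhx2 was listed at 176, 112 and 173 CPM after NMDA, 264 and 288 in aged cells, 3.62 and 2.96 in young cells and 0.813 to 1.66 in RPCs. Since Lhx2 is one of the genes near 0 in both young cells and RPCs, no direction is read from it.

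Sfrp2, a secreted Wnt antagonist gene, was at 2231, 2152 and 2115 CPM in RPCs and at most 0.197 in every Müller library, so its call after NMDA compares values at or near 0. Dll1 was at 96.1 to 107 CPM in RPCs (log2 2.19 ± 0.31, adjusted p = 0.00032), and at 13.4 and 28.6 in young cells and 14.1 to 17.4 after NMDA.

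**Figure D5:**
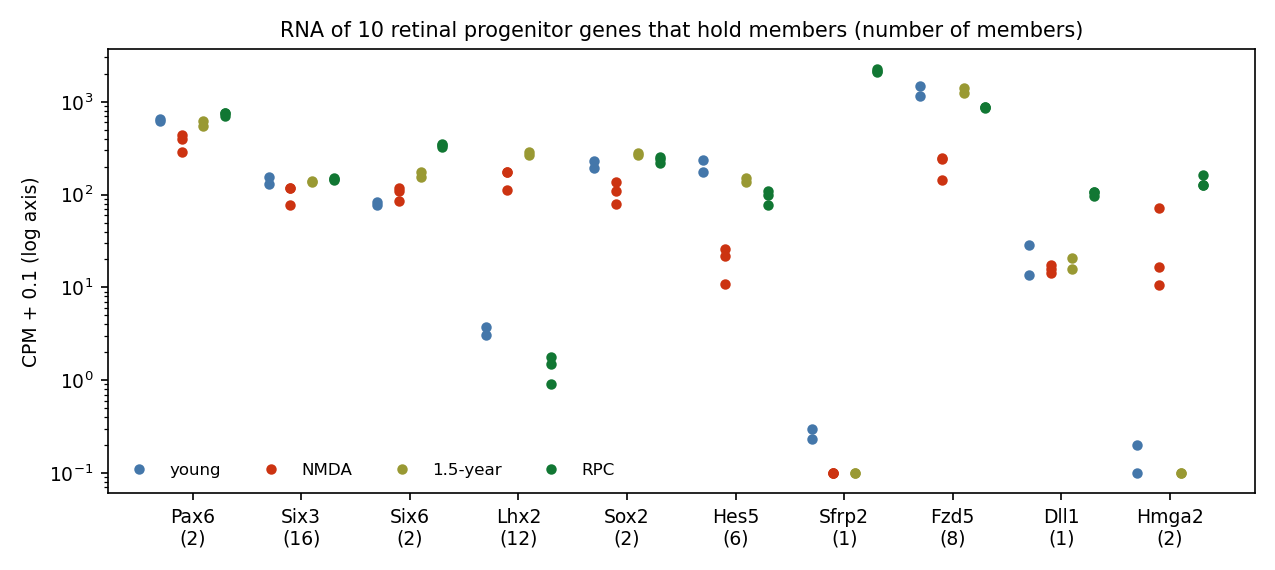
RNA level (CPM + 0.1, log axis) of 10 retinal progenitor genes that hold members, 1 point per library. Hes5 and Fzd5 lie below the young and 1.5-year points after NMDA, and Lhx2 is low in both young cells and RPCs.

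The genes of the 12 regions gave no common direction. Of 16 genes with counts, 13 were tested after NMDA, and 3 were called higher, 3 lower and 7 neither. With 30.6% and 14.3% of all genes tested called higher and lower, these counts are near the background. Sema6c fell by log2 1.07 ± 0.28 (15.6, 8.7 and 18.1 CPM against 28.4 and 35.6, adjusted p = 0.013). Nfatc4 fell by log2 1.83 ± 0.24 (21.1 ± 4.86 CPM against 81.3 ± 26.3, SD, n = 3 and 2, adjusted p = 0.00054), with 53.2 and 68.9 in aged cells. Neither overlapped with young cells.

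Gse1 rose by log2 2.61 ± 0.38 (90.3 ± 9.47 CPM against 15.7 ± 10.8, SD, n = 3 and 2, adjusted p = 0.00094), but it overlaps another gene and rose in aged cells too (log2 2.39 ± 0.40, adjusted p = 0.0029). Psmb6 rose by log2 0.37 ± 0.12 (adjusted p = 0.032). Eva1b had 0 counts in both young libraries and 1.26, 1.91 and 1.11 CPM after NMDA, at least 12.1-fold higher. Prdm8 was at 19.9 and 0 CPM in the 2 young libraries, which differ too much for a reading (log2 0.80 ± 1.28, adjusted p = 0.64). Dll4 was listed at 0.167 to 0.504 CPM after NMDA, 0 and 0.0658 in young cells and 48.6 to 62.0 in RPCs. Gm14207 was at 3.16 to 4.11 in RPCs and otherwise at 0, but its span overlaps that of Dll4, so their reads cannot be told apart. Cldn7, Gltpd2 and Hes3 were too low to be tested.

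The 5 member genes with the lowest changes after NMDA, among those of at least 8 CPM without overlap, were C2cd4c, Hist2h2be, Fzd9, Hes5 and Mn1. Fzd9, a Wnt receptor gene, fell by log2 3.50 ± 0.25 (3.15, 2.58 and 3.84 CPM against 36.0 and 42.0, adjusted p = 2.2e-05) and stood at 34.9 and 33.9 in aged cells. C2cd4c fell by log2 3.53 ± 0.43 (adjusted p = 0.00038), the histone gene Hist2h2be by 3.50 ± 0.23 (adjusted p = 1.4e-05) and Mn1, a transcriptional cofactor gene, by 3.04 ± 0.27 (adjusted p = 7e-05). These 4 were not called in aged cells.

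The 5 highest by the same rule, Fgfr1, Sgk1, Arhgap26, Rbm20 and Manf, all belong to the 151 genes listed near 0 in young cells and RPCs, as do the 5 highest in aged cells. Fgfr1, for example, was listed at 303, 196 and 262 CPM after NMDA, 307 and 371 in aged cells, 0 in both young libraries and 0.275 to 0.612 in RPCs. No direction is read from them. The highest 5 without such genes and without overlapping genes, chosen after the values were seen, were Hmha1, Adap2, Coro1a, Slc12a5 and Synpo. Synpo, an actin-associated protein gene, rose by log2 4.50 (98.5, 82.2 and 107 CPM against 4.67 and 4.43, adjusted p = 3.4e-06). Slc12a5, a potassium-chloride cotransporter gene of neurons, was at 105 CPM on average after NMDA and at 6.84 and 0 in the young libraries. In aged cells the 5 were Zfp467, Slc12a5, Lmtk2, Ell and Uqcrc1. The kinase gene Lmtk2 was at 186 and 196 CPM there (log2 4.14 ± 0.23, adjusted p = 6.7e-06). It was also higher after NMDA (log2 3.29 ± 0.21, adjusted p = 1.4e-05), and stood at 9.54 and 15.3 CPM in young cells and 2.97 to 3.17 in RPCs. All 5 had lower means in young cells and RPCs than in NMDA and aged cells, as the 151 genes did, though not below the 1/20 limit. Whether they share the feature of the 151 was not tested, so no direction is read from them either.

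Hmha1, Adap2 and Coro1a, a coronin gene of blood cells, were highest in NMDA replicate 2, as were microglial genes. Coro1a, for example, was at 5.36, 77.7 and 9.85 CPM in the NMDA libraries and at most 0.0985 in young cells. Of 16 microglia and macrophage markers 12 were called higher after NMDA, against 30.6% of all genes tested. The 16 summed to 483, 4683 and 983 CPM against 30.7 and 160 in young cells, where Aif1, Trem2 and Ptprc had 0 counts. Lens markers summed to 36.2, 1044 and 52 CPM in the NMDA libraries, again highest in replicate 2, against 0 and 10 in young cells. In bulk samples fewer cells of a type and less RNA per cell cannot be told apart. The labels do not tie RNA libraries to RRBS libraries, and the part of other cells in the methylation gains was not tested.

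Markers of the sorted cells were present in all Müller groups. Their 20 genes summed to 61976 and 71869 CPM in young cells, 21918 to 29137 after NMDA, 58577 and 58977 in aged cells and 2990 to 3052 in RPCs. Glul, the glutamine synthetase gene, fell after NMDA by log2 2.84 ± 0.26 and Rlbp1, the reporter's gene, by 1.70 ± 0.36, while Gfap, a gene of reactive glia, rose by 5.07 ± 0.45. Photoreceptor markers summed to 10692 and 15803 CPM in young cells, 8064 to 12980 after NMDA, 6147 and 9330 in aged cells and 30.8 to 39.2 in RPCs. Their part in the gains was not tested. Photoreceptor genes held 0 members among only 330 positions. The 53 positions within 1000 bp of their starts stood at 7.91% to 16.57% after NMDA and 19.49% to 25.33% in young cells. In aged cells they stood at 9.68% to 13.43%, so they were below young there as well.

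Of 19 tested genes of DNA methylation 8 were called higher after NMDA and 3 lower, where 30.6% and 14.3% of all genes tested were. No difference from that background was tested. Dnmt1, the maintenance methyltransferase gene, rose by log2 1.60 ± 0.11 (119, 121 and 121 CPM against 46.6 and 38.9, adjusted p = 2.2e-05), and by log2 1.03 ± 0.12 in aged cells (71.5 and 81.8, adjusted p = 0.00049). Dnmt1 overlaps another gene, as do Tet1, Tet3 and Gadd45a. Uhrf1, which recruits it to newly copied DNA, was at 13.2, 14.3 and 9.24 CPM after NMDA against 0.0658 and 0.197 in young cells, with 472 to 494 in RPCs (log2 6.71 ± 0.38 after NMDA, adjusted p = 7.1e-06).

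Tet1, itself a member gene, fell by log2 1.44 ± 0.18 (48.6, 34.1 and 56.6 CPM against 137 and 133, adjusted p = 0.00042), and was at 149 and 161 in aged cells and 170 to 176 in RPCs. The order of Tet1 levels among the groups placed NMDA alone at the bottom, without overlap with any other group. Tet3 fell by log2 0.27 ± 0.09 (adjusted p = 0.031), and Tet2 did not pass (log2 -0.21 ± 0.15, adjusted p = 0.30). Gadd45a, a gene linked to demethylation, rose by log2 2.82 ± 0.38 (40.6, 45.8 and 38.2 CPM against 3.82 and 9.06, adjusted p = 0.00065). Dnmt3a, the de novo methyltransferase gene, was listed at 102, 107 and 118 CPM after NMDA, 141 and 146 in aged cells, 0 and 1.48 in young cells and 0.35 to 1.17 in RPCs, and like Lhx2 it gives no direction although it is among the 8.

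Of the member genes lowest in RPCs, Kcnj10, the potassium channel gene of Müller glia with 2 members, stood at 0.275 to 0.542 CPM in RPCs against young levels of 1051 and 1008 (log2 -11.41 ± 0.27, adjusted p = 5.3e-08), with 710 to 1061 after NMDA. The others were Slc24a1, Ano2, Sp7 and Slc17a7, and the 5 highest in RPCs were Sfrp2, Fam64a, Ebf3, Zfp488 and Depdc1b. Ebf3, a neuronal transcription factor gene with 11 members, had 45.7 to 83.8 CPM in RPCs and was listed with 0 counts in young cells, at least 572-fold higher. That fold rests on the young zeros, and Ebf3 overlaps another gene. Lowest in aged cells were Sap25, Rn18s-rs5, Chst3, Mmp11 and Sez6, of which Sap25 was listed at 22.6 and 34.6 CPM in young cells and at 0 in both aged libraries. Sap25 and Rn18s-rs5 overlap other genes, so no loss with age is read from them.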

How the data were processed

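CpG methylation was measured by RRBS in 12 libraries and RNA in 10. Per the submitters' processing notes, the tools were methylKit 1.4.0, Bismark 0.16.3, HISAT2 2.0.4 and Trim Galore 0.4.3, with mm10 and GRCm38 as builds. The deposited RRBS files give, per the file headers, methylation in percent and the read coverage of each position of each strand, listed only from 10 reads. The libraries listed 1338829 to 2532174 positions, with median coverage of 53 to 110 reads at the common autosomal ones. The deposited RNA table holds read counts per gene made by the authors, and neither the counter nor its use of strand is given in the sources used here.

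The rule was applied to the mean percent of the 3 libraries of a group. The members, gene lists and comparisons were chosen with earlier results of these data known. Gene spans and start sites came from RefSeq on GRCm38.p6, the files' build. RNA was fitted over all 10 libraries with edgeR 4.0.16 (R 4.3.3, TMM, quasi-likelihood, 6 residual degrees of freedom), calling at a Benjamini-Hochberg adjusted p under 0.05. The fit was tested on simulated data. NMDA and RPC RNA libraries are called replicates with no word on separate animals, so p-values may measure technical spread. A group at 0 was bounded by 3 counts over the group.

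Named were the 12 regions with most members and their genes, the 8 largest other gains, 5 positions on each side of the threshold, member genes of the lists, the 5 highest and 5 lowest called member genes per RNA comparison (at least 8 CPM, no overlap, predicted and clone names left out), DNA methylation genes, and Rlbp1, Glul and Gfap. Gene lists covered retinal progenitors, Müller glia, DNA methylation, gliosis with injury, early neurons with neurogenic factors, inner retinal neurons, photoreceptors, vessels, lens, blood, pigment cells, and microglia with macrophages. Alternatives were other limits, coverage minimums, scalings, filters, DESeq2 1.42.0, a replicate block and each library left out. Python 3.11.15, numpy 2.4.6 and pandas 2.3.3 were used. Some named items are not reported here.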

Additional observations from a re-analysis of the deposited data

How the results depend on the processing

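The number of members was 6041, 2011 and 1046 with a gain of at least 10, 20 and 25 points, 15648 with no condition on RPCs, 6648 with none on overlap, 1956 with at least 30 reads, and 3762 to 6248 with 1 library left out. The highest counts came without NMDA replicate 1 (6144) or 2 (6248), which loosens the rule. Of the 3739 members 2754 to 3615 still met the rule with 1 library left out. The fewest, 2754, remained without NMDA replicate 3, on which the members thus rested most. Other alternatives stayed within 1.5 times. Member genes called in RNA numbered 697 after NMDA, 384 in aged cells and 911 in RPCs. They were 433 and 54 in fits of the 2 groups alone (NMDA and aged), 338, 184 and 459 with at least 2 members, and, among genes overlapping no other (added after the data were seen), 271, 104 and 394. Leaving out 1 library gave 611 to 883, 259 to 686 (the highest without young replicate 2) and 815 to 1051. Upper-quartile scaling, with 729 calls after NMDA and a median of 0.04 over all genes against 0.26, called 380 member genes higher and 349 lower. A filter at 5 CPM called 282 higher and 285 lower after NMDA and 261 and 480 in RPCs. In aged cells DESeq2 called 346 higher and 114 lower. With the replicate number as a block 580, 289 and 823 were called. The deviations of same-numbered libraries from their group means correlated at -0.061 to 0.089. In groups of 2 libraries these deviations mirror each other, so whether the numbers pair libraries cannot be decided from them. Of the named genes' values under all alternatives 155 lost the call and 78 gained one. The sign turned in 73 cases with no call on either side, under various alternatives, and in 15 with a call on at least 1 side, each of these with 1 young library left out. In RPCs the values ran from -5.43 to 4.68 for Gadd45b, -0.35 to 1.14 for Mbd2, -0.42 to 1.07 for Mbd3, -2.11 to 9.37 for Prdm8, -4.51 to 5.43 for Slc12a5, -3.45 to 7.59 for Zfp467 and -0.91 to 8.34 for Ell. After NMDA they ran from -1.08 to 2.21 for Gadd45g, -1.55 to 7.78 for Insm1, -0.9 to 0.58 for Mbd3 and -0.42 to 0.67 for Vps45, and in aged cells from -0.44 to 0.62 for Dll1, -1.86 to 1.43 for Gadd45g, -1.14 to 8.19 for Insm1 and -0.48 to 0.61 for Vps45. The cause was not tested. At 10 to 20 reads a single position's level has a wide counting interval, and with 2 young RNA libraries the baseline is weak.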

Other observations

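Outside the lists, the ephrin receptor gene Ephb2 had 19 members and the T-box gene Tbx2 had 14, chosen after their values were seen. Among all genes 84 had 10 or more members, so such counts were not particular to these genes.

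The vascular list had members at 2 of 9 measured genes, Cspg4 and Pdgfrb. The member of Cspg4, 52 bp after a start site, stood at 35.55% ± 10.02 after NMDA and 9.77% ± 3.92 in young cells (SD, n = 3). In RNA 7 of the 11 vascular genes were called higher after NMDA and 7 in aged cells, against 30.6% and 21.1% of all genes tested. Of the 11 genes 7 were listed at 0 in both young libraries, which detected fewer genes than the others, so no direction is read from these counts. Of inner retinal neuron genes 1 of 16 measured held a member, and of neurogenic and early neuron genes 2 of 13.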
